A study of Homo sapiens with 18 samples.

Results

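The 10 genes described here control the passage of cells from G1 into S phase: the D-type cyclins CCND1 and CCND3, their kinases CDK4 and CDK6, the E-type cyclins CCNE1 and CCNE2, the CDK inhibitors CDKN1B (p27) and CDKN2B (p15), and the transcription factors E2F1 and E2F2. They were taken by symbol, and all 10 were found among the 44682 genes of the whole-cell table and the 15747 genes of the fraction table. DU145, an established line from a metastatic prostate carcinoma, was given 40 µM GC7 or vehicle for 24 h. GC7 blocks deoxyhypusine synthase and thereby the hypusine modification of the translation factor eIF5A, which ribosomes need at certain sequences such as runs of prolines. RNA was sequenced from whole cells, from cytoplasm and from heavy polysomes, each with GC7 and with vehicle, in 6 groups of 3 libraries, 18 in all. Per the labels' protocols, which give 1 extraction text for all 18 libraries, cells of both arms received emetin (emetine), which arrests elongating ribosomes, at 25 µg/ml for 10 min before harvest. DU145 is a single cell line, so the libraries are not independent tumours.

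In the textbook pathway, D-type cyclins activate CDK4 and CDK6, which phosphorylate the retinoblastoma protein RB and release E2F factors. E2F then drives genes of DNA replication as well as CCNE1, CCNE2, E2F1 and E2F2 themselves, and cyclin E with CDK2 continues the phosphorylation. INK4 inhibitors such as CDKN2B bind CDK4 and CDK6, and the targets of CDKN1B include cyclin E-CDK2. DU145 cells lack functional RB protein because of a truncating mutation in RB1. The link that RB makes between the cyclin D kinases and E2F is therefore missing from this line.

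The deposited tables hold comparisons and no value per library, so spread between libraries is known only through the deposited SE of each fraction, and the depth of each library is unknown. Whether the replicates came from separate cultures is not stated, so the p-values reflect a spread that may be purely technical. No direction is stated in the tables. Higher with GC7 was taken to be what the authors' category "UP" means, and the sign of the whole-cell table was reversed, since 63 of 66 genes that the authors' deposited table marks as up in both fractions are negative there as deposited and 5 of 6 marked as down in both are positive. Every direction below rests on this reading. All 5 epithelial marker genes examined were among the measured genes of the fractions, and the authors' deposited table gives KRT18 a mean normalized count of 41006 in cytoplasm. Of 3 leukocyte markers only CD68 was in the fraction table, and of 3 fibroblast or endothelial markers none. All 3 of the latter were inferred to have whole-cell reads, because their log fold changes differed from the most common deposited value.

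Of the 10 genes, CCND3, E2F1 and E2F2 fell with GC7 in both cytoplasm and polysomes, and CCNE2 fell in polysomes. No member rose by the test in any comparison. In cytoplasm 3 of 10 were called lower at an adjusted p under 0.05 and none higher, where 1.95% of all genes were called lower, 2.29% higher and 4.24% either way. In polysomes 4 of 10 were called lower and none higher, where 5.48% of all genes were called lower, 5.61% higher and 11.1% either way. Called lower in both fractions were 3 of the 10, beside 194 of all 15747 genes. In whole cells none of the 10 was called, nor was any of all 44682 genes (0%), and none of the 10 had an unadjusted p under 0.05, a level that 2.99% of all genes reached. By the authors' deposited tables the median over the 10 genes was -0.36 for whole cells, -0.11 for cytoplasm and -0.19 for polysomes, beside -0.04 over the 14099 genes shared by both tables in whole cells, -0.00 over all genes in cytoplasm and -0.00 in polysomes. The fraction values are shrunken towards 0, so the sizes of these medians are not comparable with the whole-cell one. Unshrunken, the medians of the 10 were -0.22 in cytoplasm and -0.26 in polysomes, beside -0.01 over all genes in each. The authors' own category, which also asks for a log2 fold change over 1 in size, held none of the 10.

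**Figure D1:**
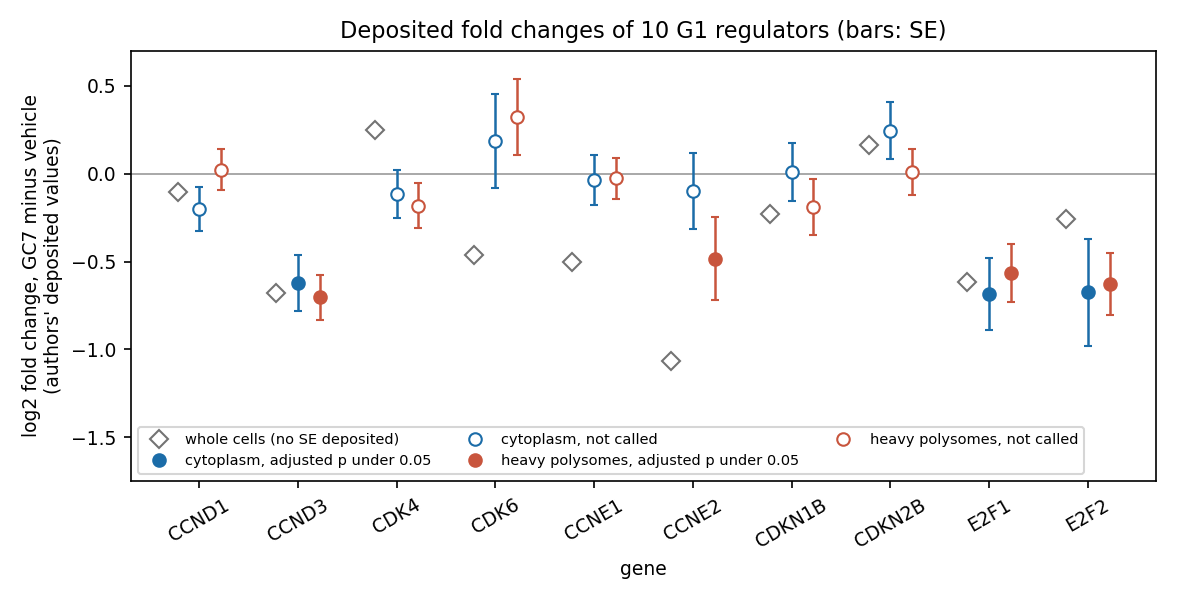
Deposited log2 fold changes (GC7 minus vehicle) of the 10 genes in whole cells (diamonds, no SE deposited), cytoplasm (blue) and heavy polysomes (red), with bars for the SE and filled circles for an adjusted p under 0.05. The filled circles are CCND3, E2F1 and E2F2 in both fractions and CCNE2 in polysomes, between -0.48 and -0.70.

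E2F1 and E2F2 are the activator E2Fs of the set and were lower together. Their promoters are shown with those of CCND3, the cyclin called lower in both fractions, and CCNE1, an E2F target that was not called. These genes were picked by their calls, so the windows describe where motifs lie and do not compare genes that moved with genes that did not. CCNE2, called lower in polysomes, and CCND1 had no RefSeq window and could not be included. The sequences are the 250 bases before the transcription start from RefSeq (GRCh38.p14), read 5′ to 3′ on the gene's strand, at chr20:33686386-33686635 (minus strand), chr1:23531234-23531483 (minus), chr6:41941809-41942058 (minus) and chr19:29811741-29811990 (plus). The CCND3 window precedes the start of its reference transcript and lies inside the gene's full span. Capitals mark matches to TTTNGCGC, an E2F motif searched on both strands.
E2F1: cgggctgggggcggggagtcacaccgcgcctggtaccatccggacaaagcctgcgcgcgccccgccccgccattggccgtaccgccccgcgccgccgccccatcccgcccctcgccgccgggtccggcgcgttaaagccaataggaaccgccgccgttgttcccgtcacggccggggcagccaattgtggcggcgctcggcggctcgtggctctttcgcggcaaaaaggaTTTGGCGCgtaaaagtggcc
E2F2: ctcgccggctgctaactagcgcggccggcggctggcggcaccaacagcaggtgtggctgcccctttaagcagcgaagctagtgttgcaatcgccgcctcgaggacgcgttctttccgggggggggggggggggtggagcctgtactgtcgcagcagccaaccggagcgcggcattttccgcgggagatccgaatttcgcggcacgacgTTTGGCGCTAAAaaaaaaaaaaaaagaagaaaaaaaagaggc
CCND3: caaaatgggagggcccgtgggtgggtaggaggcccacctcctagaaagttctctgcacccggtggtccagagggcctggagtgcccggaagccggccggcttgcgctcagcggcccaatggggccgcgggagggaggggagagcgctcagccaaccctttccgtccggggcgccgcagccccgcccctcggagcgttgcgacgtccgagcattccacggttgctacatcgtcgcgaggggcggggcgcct
CCNE1: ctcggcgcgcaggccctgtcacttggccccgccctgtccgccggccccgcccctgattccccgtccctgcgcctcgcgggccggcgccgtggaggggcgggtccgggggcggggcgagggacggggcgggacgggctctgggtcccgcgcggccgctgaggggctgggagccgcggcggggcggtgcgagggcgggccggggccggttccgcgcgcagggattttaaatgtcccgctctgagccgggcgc
Counting the base before the transcription start as -1, E2F1 held 1 match, at -20 to -13. E2F2 held 2 overlapping matches, at -42 to -35 on the strand of the gene and at -38 to -31 on the opposite one. Neither CCND3 nor CCNE1 held a match, and the same was true of the windows of CDK4, CDK6, CDKN1B and CDKN2B. In all, 2 of the 8 members with a window of 300 bases (250 before and 50 after the start) held the motif, compared with 1.79% of 35116 RefSeq windows and 3.62% of the 11138 genes of the fraction table that have one. The shorter motif TTTNGCG, tried after the sequences had been seen and contained in the longer one, was found in the same 2 of 8 members and in 9.63% of those 11138 genes, and gave 1 further match to E2F1, at -37 to -31, and 1 to E2F2, at -57 to -51. A match describes these letters only, and its absence from a window says nothing about whether E2F binds the gene.

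**Figure D2:**
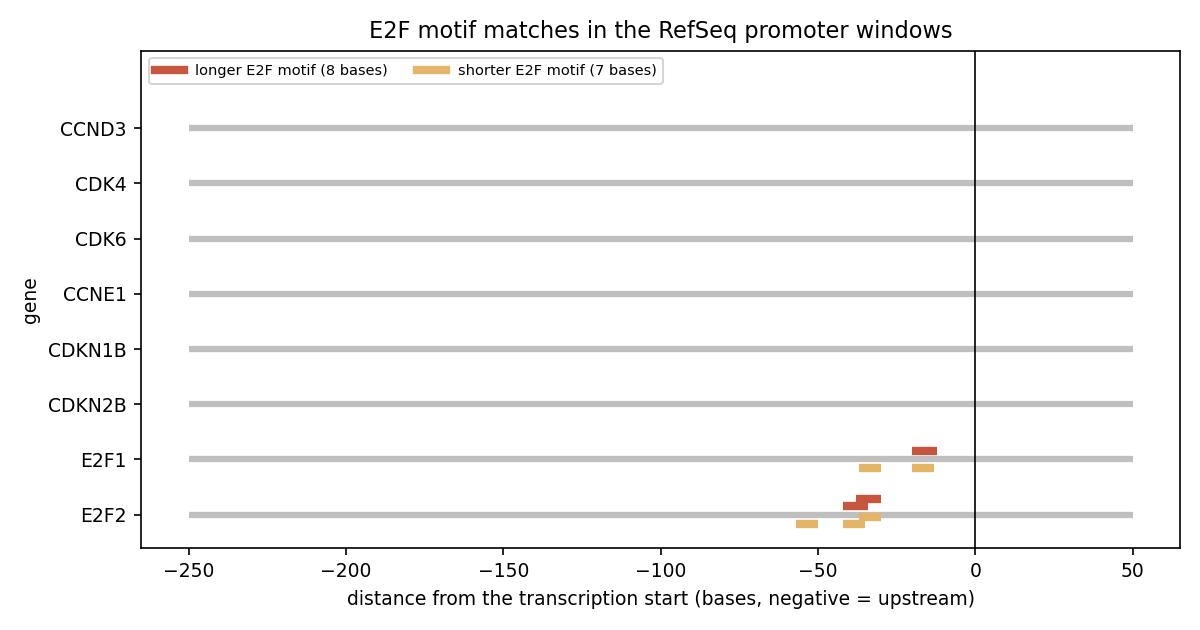
Matches to the longer (red) and shorter (yellow) E2F motif in the RefSeq windows of the 8 members that have one, at the start of the reference transcript, by distance in bases from the transcription start; in E2F2 the raised mark of each colour lies on the opposite strand. Matches are seen in E2F1 and E2F2, all between -57 and -13.

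E2F1 (chr20:33675477-33686385, GRCh38) had a mean normalized count of 2364 in cytoplasm and 3813 in polysomes by the authors' deposited table. The authors' deposited table gives it a log2 fold change of -0.68 (SE 0.20, adjusted p = 0.00401) in cytoplasm and -0.57 (SE 0.17, adjusted p = 0.00189) in polysomes. These fold changes are shrunken towards 0, and the unshrunken values, computed as described under the processing, were -0.78 (SE 0.19) and -0.64 (SE 0.16), that is 0.583 and 0.643 of the vehicle level. In whole cells the authors' deposited table gives -0.62, with an unadjusted p of 0.614. The whole-cell value has no SE, and at that p its nearness to the fraction values says little. Only the fractions passed the test.

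E2F2 (chr1:23506438-23531233), with a mean normalized count of 428 in cytoplasm and 658 in polysomes, stood at -0.68 (SE 0.30, adjusted p = 0.0423) and -0.63 (SE 0.18, adjusted p = 0.00129) by the authors' deposited table. Unshrunken, these were -0.86 (SE 0.27) and -0.70 (SE 0.17). For whole cells the authors' deposited table gives -0.26 (unadjusted p = 0.641). The fall of E2F2 passed in both fractions, in cytoplasm only narrowly.

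Of the D-type cyclins, CCND3 fell and CCND1 did not pass in any comparison. CCND3 (chr6:41934934-42050357), with 1534 normalized counts in cytoplasm and 2766 in polysomes, had the smallest adjusted p of the 10 genes, with -0.62 (SE 0.16, adjusted p = 0.000867) in cytoplasm and -0.70 (SE 0.13, adjusted p = 4.89e-07) in polysomes by the authors' deposited table. The unshrunken polysomal value of -0.74 (SE 0.13) corresponds to 0.598 of the vehicle level. In whole cells CCND3 stood at -0.68 (unadjusted p = 0.273) by the authors' deposited table. CCND1 (chr11:69641156-69654474), the cyclin with the highest counts per kb of transcript, had -0.20 (SE 0.12, adjusted p = 0.32) in cytoplasm and 0.02 (SE 0.12, adjusted p = 0.926) in polysomes by the authors' deposited table. In whole cells the authors' deposited table gives CCND1 -0.10 (unadjusted p = 0.773). Its 95% interval in polysomes, unshrunken, ran from -0.24 to 0.31 and so did not reach the value of CCND3; differences between genes were not tested. CCND1 shares 497 exon bases with LTO1 on the opposite strand, and whether counting used strand is not given in the sources used here.

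Their kinases were not called. CDK4 (chr12:57747727-57756013), with 5842 normalized counts in cytoplasm and 11623 in polysomes, stood at -0.12 (SE 0.14, adjusted p = 0.633) in cytoplasm and -0.18 (SE 0.13, adjusted p = 0.289) in polysomes by the authors' deposited table. Unshrunken 95% intervals of -0.50 to 0.14 and -0.50 to 0.03 bound its change. CDK6 (chr7:92604921-92836573), with 257 and 351 normalized counts, had the highest polysomal fold change of the 10, with 0.19 (SE 0.27, adjusted p = 0.411) in cytoplasm and 0.32 (SE 0.22, adjusted p = 0.141) in polysomes by the authors' deposited table. Unshrunken, CDK6 was at 0.64 (SE 0.38) and 0.48 (SE 0.21), and the polysomal p of 0.0245 was lost on adjustment. In whole cells the signs of both kinases were the opposite, 0.25 for CDK4 and -0.47 for CDK6 (unadjusted p = 0.613 and 0.439) by the authors' deposited table. CDK4 shares 1078 exon bases with TSPAN31 on the opposite strand, a gene of 126 normalized counts in polysomes that stood at 0.86 (SE 0.41, adjusted p = 0.0215) there by the authors' deposited table.

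The E-type cyclins activate CDK2 at the start of S phase. CCNE1 (chr19:29811991-29824312) lay close to 0, at -0.04 (SE 0.14, adjusted p = 0.902) in cytoplasm (502 normalized counts) and -0.03 (SE 0.12, adjusted p = 0.912) in polysomes (770.3 counts) by the authors' deposited table. The whole-cell value of the authors' deposited table was -0.50 (unadjusted p = 0.592). Its unshrunken 95% interval in polysomes, -0.31 to 0.23, lay above the polysomal values of E2F1, E2F2 and CCND3. CCNE2 (chr8:94879770-94896678), with 127 counts in cytoplasm and 233 in polysomes, is at -0.48 (SE 0.24, adjusted p = 0.0417) in the polysomes of the authors' deposited table and so was called lower, but was not called in cytoplasm at -0.10 (SE 0.22, adjusted p = 0.568). That contrast does not show a change particular to polysomes: unshrunken, the values were -0.63 (SE 0.22) in polysomes and -0.66 (SE 0.51) in cytoplasm, and the latter is imprecise. In whole cells CCNE2 had the lowest value of the 10, -1.07, at an unadjusted p of 0.373 by the authors' deposited table. CCNE2 shares 1522 exon bases with INTS8 on the opposite strand, which had 1584 polysomal counts beside the 233 of CCNE2, and stood at -0.23 (SE 0.18, adjusted p = 0.263) by the authors' deposited table, so its counts are uncertain if strand was not used.

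Neither CDK inhibitor of the set was called. CDKN1B (chr12:12685498-12722369), with 549.6 normalized counts in cytoplasm and 1001 in polysomes, had 0.01 (SE 0.17, adjusted p = 0.981) in cytoplasm and -0.19 (SE 0.16, adjusted p = 0.336) in polysomes by the authors' deposited table, with -0.23 in whole cells (unadjusted p = 0.566). CDKN2B (chr9:22002903-22009305), with 352 and 608 counts, had 0.25 (SE 0.16, adjusted p = 0.295, unadjusted p = 0.0414) in cytoplasm, 0.01 (SE 0.13, adjusted p = 0.977) in polysomes and 0.16 in whole cells (unadjusted p = 0.801) by the authors' deposited table. Unshrunken polysomal 95% intervals were -0.62 to 0.06 for CDKN1B and -0.31 to 0.34 for CDKN2B.

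Whether the polysomal response departed from the cytoplasmic one, the question of ribosome loading, was tested as the difference of the unshrunken log2 fold changes. None of the 10 genes passed this test, with a smallest unadjusted p of 0.133 for CCND1, and none of all 15740 genes did (0% at an adjusted p under 0.05, 2.13% at an unadjusted p under 0.05, 1.04% lower and 1.09% higher). The 2.13% lies below the share that a threshold of 0.05 would give if nothing changed. The test thus called too few genes, and a gene that it did not call may still differ. With a shrinkage prior 20% narrower than the fitted one, only 10533 genes had a value, 188 of these were called, and the 8 members with a value (CCNE2 and CDKN1B had none) were not. The difference was -0.06 (95% interval -0.45 to 0.33) for CCND3, 0.14 (-0.35 to 0.63) for E2F1 and 0.16 (-0.47 to 0.79) for E2F2. For these 3 genes the fall in polysomes and the fall in cytoplasm were thus not distinguishable, and changes in loading smaller than these intervals would not have been seen. CDKN2B at -0.33 (-0.79 to 0.14) and CDKN1B at -0.31 (-0.99 to 0.36) were the lowest differences and CCND1 at 0.29 (-0.09 to 0.67) the highest. CCNE2, at 0.03, had the widest interval, -1.06 to 1.12, and the sign of its difference, like that of CDK6 at -0.17, turned with the handling of shrinkage: from the deposited values they were -0.39 for CCNE2 and 0.14 for CDK6.

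**Figure D3:**
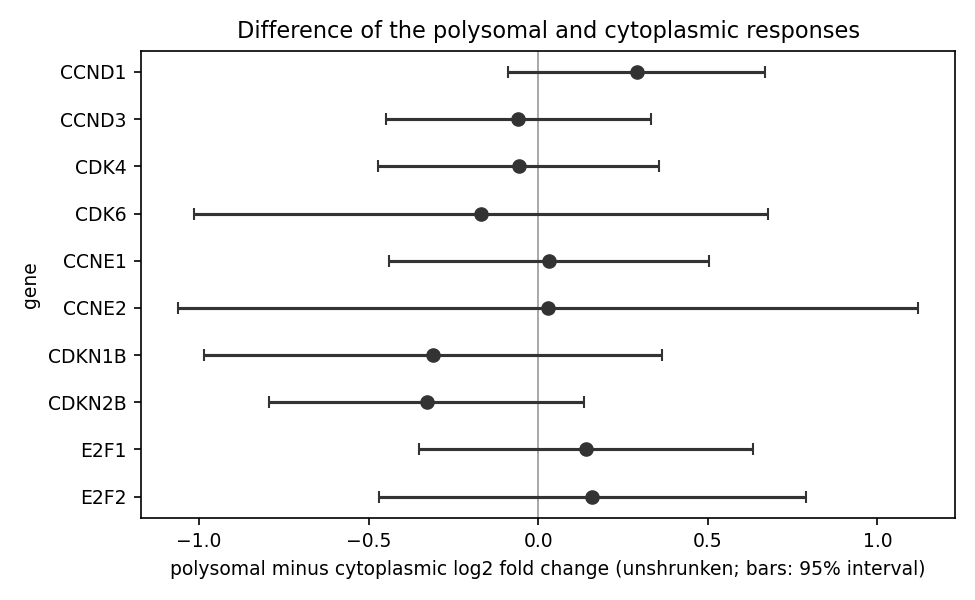
Polysomal minus cytoplasmic unshrunken log2 fold change of each of the 10 genes, with bars for the 95% interval. Every interval crosses 0, and those of CCNE2 and CDK6 are the widest.

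**Figure D4:**
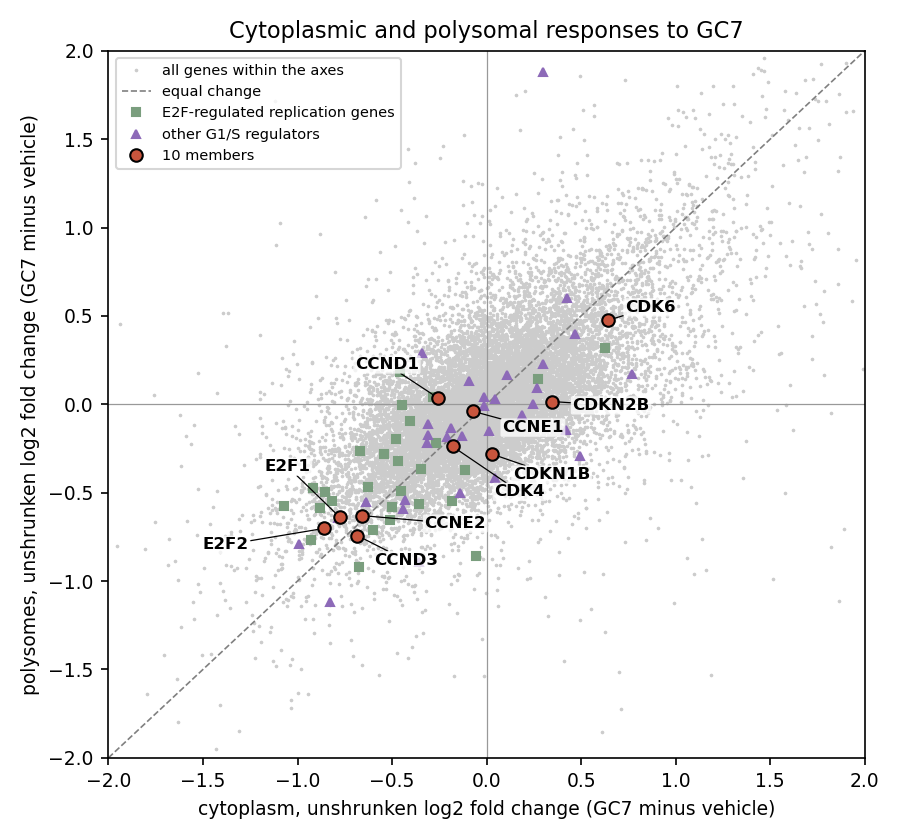
Unshrunken log2 fold change in cytoplasm (x) against polysomes (y) for all genes within the axes (grey), the 10 members (red), 32 other G1/S regulators (purple triangles) and 28 E2F-regulated replication genes (green squares), with a dashed line for equal change. E2F2, E2F1, CCND3 and CCNE2 lie together at the lower left, near the dashed line, and CDK6 at the upper right.

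Since hypusinated eIF5A is known for relieving ribosomes at proline runs, the coding sequences of the 10 genes (GENCODE v44 reference transcripts on GRCh38) were searched for at least 3 successive proline codons (CCN). CDK4, E2F1 and E2F2 held 1 run each and the other 7 genes none, compared with 26.2% of 12751 genes of the fraction table. The runs are shown with 15 bases on either side, capitals marking the proline codons, which are codons 108 to 110 in CDK4, 333 to 335 in E2F1 and 360 to 363 in E2F2.
CDK4: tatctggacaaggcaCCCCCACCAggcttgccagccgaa
E2F1: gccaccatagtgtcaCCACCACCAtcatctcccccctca
E2F2: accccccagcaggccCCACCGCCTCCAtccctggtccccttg
The differences (polysomal minus cytoplasmic) of the 3 genes, -0.06 for CDK4, 0.14 for E2F1 and 0.16 for E2F2, lay within those of the 7 genes without a run, -0.33 to 0.29. With 10 genes this is a description and not a test of proline runs.

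All 10 mRNAs were found on heavy polysomes. As a share of all counts in each fraction, the polysomal share was 1.23 times the cytoplasmic one for CDK6, the lowest, and 1.79 times for CDK4, the highest, where the median over all 15747 genes was 1.27. CDK4 stood at the 84.9th percentile of genes, CCNE2 at the 78.8th, CDKN1B at the 77.9th and CCND3 at the 76.9th. These shares pool GC7 and vehicle libraries, carry no error, and depend on the separate normalization of each fraction. Per kb of reference transcript, which allows genes to be compared, polysomal counts were highest for CDK4 at 6232, followed by CCND1 at 2208, E2F1 at 1417, CCND3 at 1365, CDKN1B at 415, CCNE1 at 394, CDKN2B at 158, E2F2 at 127, CCNE2 at 87.1 and CDK6 at 30.1. Whether neighbours in this order differ beyond their spread cannot be said from means alone, and the value of CDK6 rests on a reference transcript of 11663 bases.

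The other regulators of this pathway, a list of 32 genes, held some called lower and some called higher. In cytoplasm 4 of 32 were called lower and none higher (background 1.95% lower and 2.29% higher), and in polysomes 8 were called lower and 3 higher (background 5.48% and 5.61%). In whole cells none was called. The list's deposited medians were -0.02 in cytoplasm and -0.08 in polysomes, next to -0.00 for all genes in each. Of the other E2F genes in the list only the atypical repressors E2F7 and E2F8 were called. E2F7 fell in both fractions, at -0.64 (SE 0.26, adjusted p = 0.0292) in cytoplasm and -0.49 (SE 0.25, adjusted p = 0.0464) in polysomes by the authors' deposited table, and E2F8 in polysomes, at -0.78 (SE 0.24, adjusted p = 0.00225). MYBL2, a transcription factor that activates genes of later cell cycle phases with the MuvB core, fell at -0.95 (SE 0.15, adjusted p = 1.85e-08) in cytoplasm and -0.74 (SE 0.15, adjusted p = 9.02e-06) in polysomes by the authors' deposited table. TFDP2, a dimerization partner of E2F, rose in polysomes at 0.33 (SE 0.14, adjusted p = 0.0411) by the authors' deposited table. TFDP2 and E2F8 were not called in cytoplasm. Unshrunken, TFDP2 was at 0.47 (SE 0.19) in cytoplasm and 0.40 (SE 0.14) in polysomes. E2F8 was at -0.36 (SE 0.49) in cytoplasm, which is imprecise, and -0.89 (SE 0.23) in polysomes. Neither was called in the polysomal minus cytoplasmic difference, so no change particular to polysomes is shown.

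Among inhibitors and kinases outside the 10 genes, CDKN2C (p18), an INK4 inhibitor like CDKN2B, had the lowest polysomal value of the list, -1.08 (SE 0.16, adjusted p = 3.04e-10) by the authors' deposited table, with -0.70 (SE 0.24, adjusted p = 0.0119) in cytoplasm and -1.20 in whole cells (unadjusted p = 0.0115). CDKN2D (p19) fell in polysomes, at -0.45 (SE 0.17, adjusted p = 0.0175) by the authors' deposited table. CDK2, the partner of cyclin E, fell there at -0.42 (SE 0.17, adjusted p = 0.0243), and its activating phosphatase CDC25A at -0.50 (SE 0.18, adjusted p = 0.0118), both from the authors' deposited table. SKP2, which targets CDKN1B for degradation, fell in cytoplasm at -0.52 (SE 0.21, adjusted p = 0.0369) and in polysomes at -0.48 (SE 0.16, adjusted p = 0.0064) by the authors' deposited table. FBXO4, an F-box protein, rose in polysomes at 0.53 (SE 0.16, adjusted p = 0.00232), as did the third D-type cyclin CCND2 at 1.55 (SE 0.57, adjusted p = 0.00558) by the authors' deposited table, the latter from a mean of only 20.9 normalized counts. CDKN2D, CDK2, CDC25A, FBXO4 and CCND2 were not called in cytoplasm. Unshrunken, they stood there at -0.43 (SE 0.29), -0.14 (SE 0.24), -0.44 (SE 0.15), 0.42 (SE 0.25) and 0.30 (SE 0.47), in that order. Their unshrunken polysomal values were -0.54, -0.50, -0.59, 0.60 and 1.88. None was called in the polysomal minus cytoplasmic difference, so these calls do not show changes particular to polysomes.

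The mRNA of RB1 itself was present, with mean normalized counts of 344 in cytoplasm and 388 in polysomes, and was not called at -0.04 (SE 0.16, adjusted p = 0.898) and 0.06 (SE 0.16, adjusted p = 0.796) by the authors' deposited table, which has -0.44 for whole cells (unadjusted p = 0.572). A count of RNA does not show whether protein is made from it. The related pocket proteins were not called either, RBL1 (p107) at -0.11 (SE 0.14, adjusted p = 0.644) in cytoplasm and -0.08 (SE 0.15, adjusted p = 0.746) in polysomes, and RBL2 (p130) at 0.06 (SE 0.20, adjusted p = 0.735) and -0.09 (SE 0.14, adjusted p = 0.695), all from the authors' deposited table.

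Of 28 genes of DNA replication that E2F is known to regulate, such as MCM subunits, thymidylate synthase and PCNA, 7 were called lower in cytoplasm. In polysomes 9 were called lower, and none was called higher in either fraction (background as above). Lower in both fractions were 3 of the 28, beside 194 of all 15747 genes. The deposited medians of the 28 genes were -0.31 in cytoplasm and -0.26 in polysomes, both of shrunken values, and -0.51 in whole cells, where none was called. Unshrunken, their medians of -0.47 in both fractions were larger in size than those of the 10 members, -0.22 in cytoplasm and -0.26 in polysomes. They were smaller in size than the single values of E2F1 and E2F2. In the polysomal minus cytoplasmic difference no gene of either list was called, and at an unadjusted p under 0.05 the 32 regulators held 1 lower (CKS1B) and 1 higher (CCND2) and the replication genes 1 higher, where 1.04% of all genes were lower and 1.09% higher. The motif TTTNGCGC was held by 9 of the 25 replication genes with a RefSeq window and by 3 of the 27 other G1/S regulators with one, beside 3.62% of the genes of the fraction table. The shorter TTTNGCG was held by 12 of those 25 and 10 of those 27, beside 2 of 8 members and 9.63% of the genes of the fraction table. In bulk RNA, fewer cells in S phase and less of these RNAs per cell cannot be told apart.

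**Figure D5:**
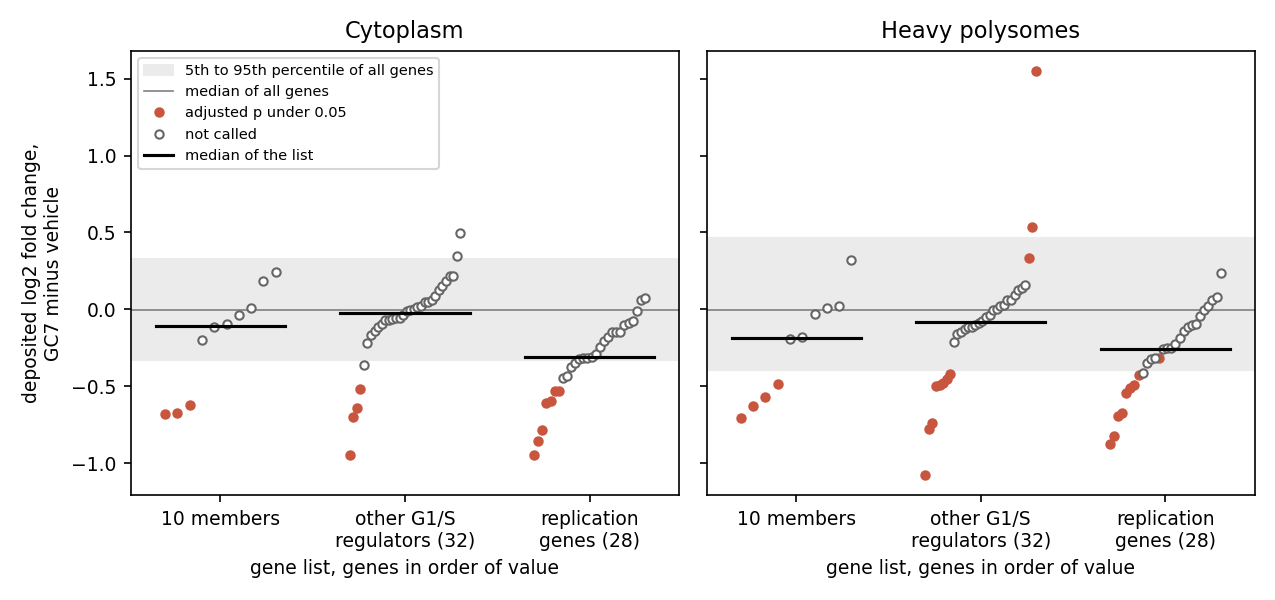
Deposited log2 fold changes (GC7 minus vehicle) in cytoplasm and heavy polysomes for the 10 members, 32 other G1/S regulators and 28 E2F-regulated replication genes, each list in order of value, with filled circles for an adjusted p under 0.05, a black line for the list's median and a grey band for the 5th to 95th percentile of all genes. Filled circles lie below 0 except for FBXO4, TFDP2 and CCND2 in polysomes.

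For the 2 members with the smallest polysomal adjusted p, the genes nearest over the 3 comparisons (Euclidean distance over whole-cell, unshrunken cytoplasmic and unshrunken polysomal log2 fold change, among 11151 other genes with a mean normalized count of at least 100 in both fractions) were identified. INCENP was nearest to CCND3 at a distance of 0.07, with -0.61, -0.68 and -0.74 in whole cells, cytoplasm and polysomes, followed by SNRNP25 and CSTF3, both at 0.09. MED11 was nearest to E2F2 at 0.06, with -0.27, -0.88 and -0.75, followed by SPC24 and H2AX, both at 0.11. Likeness over 3 values among this many genes describes the pattern and nothing further.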

How the data were processed

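RNA of 18 DU145 libraries was compared by the authors between GC7 and vehicle; groups were taken from the labels. The submitters' processing notes name Salmon 1.4.0 and STAR 2.7.8a, and the genome GRCh38; which gave which table is not given in the sources used here. Per the file headers, the deposited whole-cell table holds a log fold change, read as log2, and an unadjusted p-value. Per the file headers, the fraction table holds 2 scores per gene and fraction, the mean normalized count over both arms and the SE, with a log2 fold change and p-values with and without adjustment. Neither states its test or numerator, and no value per library was used, so the planned tests on counts could not be made.

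Benjamini-Hochberg adjustment was applied to the whole-cell p-values (44682 genes). Deposited fold changes of the fractions, divided by their SE, fall short of the deposited p-values and were taken as shrunken. Unshrunken values assumed a Cauchy prior, in natural log units, with a scale (0.197 for cytoplasm, 0.203 for polysomes) fitted so that the deposited p-values are returned (z within 0.1 for 99.7% and 99.8% of genes). The polysomal minus cytoplasmic difference had a normal test with independent errors, over 15740 genes (7 left out, z off by over 0.5), and was tried on simulated data. An adjusted p under 0.05 was a call. Python 3.11.15, scipy 1.17.1 and statsmodels 0.14.6 were used.

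The members and gene lists were chosen with earlier results of these data known. Named were all members, list genes called in any comparison, RB1, RBL1 and RBL2, and the 3 genes nearest to each of 2 members; TSPAN31, INTS8 and LTO1 were added for their overlap. Proline runs came from coding sequences in place of the planned protein sequences. Alternatives were the adjustment, a count minimum of 100, a fold change size, shrinkage, centring, the prior scale and correlated errors.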

Additional observations from a re-analysis of the deposited data

How the results depend on the processing

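The calls of CCND3, E2F1, E2F2 and CCNE2 held when p-values were adjusted again over all genes or over genes with at least 100 normalized counts, with the same counts of members called, 3 in cytoplasm and 4 in polysomes. Centring and unshrinking left the p-values as deposited, so they could turn a direction but not a call, and turned none of the members' directions. When a log2 fold change over 1 in size was also required, 0 members were called in either fraction, and the calls over all genes went from 668 to 166 in cytoplasm and from 1746 to 214 in polysomes. In the polysomal minus cytoplasmic difference, calls over all genes went from 0 to 1 with the deposited shrunken values, to 1 with a prior scale 20% larger and to 188 with one 20% smaller, under which only 10533 genes and 8 of the 10 members (not CCNE2 or CDKN1B) had a value. No member with a value was called under any of these. The difference of CCNE2 turned from 0.03 to -0.39 with shrunken values and to -0.33 with the larger scale, and that of CDK6 from -0.17 to 0.14 with shrunken values; the cause was not tested. Of 198 member values under an alternative, 188 kept direction and call, 7 lost the call and 3 turned. Many of these outcomes were fixed in advance. Renewed adjustment, the count minimum, the fold change size and correlated errors reuse the same value, so no direction could turn there. The 188 is therefore not a measure of robustness. All 3 that turned were polysomal minus cytoplasmic differences. No paired analysis was possible because the tables hold no value per library, and leaving out each replicate was not run for the same reason. The depth of each library is unknown.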
